A study of Mus musculus with 6 samples.

Results

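Of 10808 protein-coding genes that were well detected in control islets, 53 were nearly lost in Dpy30 knockout islets. A gene entered this set if its deposited scaled count was 100 or more in each of the 3 control libraries, if its knockout mean was at or below 20% of its control mean, and if its highest knockout value lay below its lowest control value. The knockout and control values therefore chose the genes, and their difference is given here as a description, with no test. The table held 16022 protein-coding genes among 21341 genes in all. The set holds the glucose transporter Slc2a2, the potassium channel subunit Kcnj11, the nutrient receptors Ffar1, Ffar3 and Gpr119, the glucagon receptor Gcgr, the hormone Ppy, 3 claudins and many genes with no textbook place in the islet.

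The data are poly(A) RNA sequencing of pancreatic islets at postnatal day 24 from 3 control and 3 Dpy30 knockout mice. All were male C57BL/6 animals, and each library held 1 mouse. Islets, the hormone-secreting clusters of the pancreas, were picked by hand, 100 to 200 per mouse. The labels name the genotype as control or Dpy30 knockout only, and give neither the Cre line, the deleted part of the gene nor the cell types that carry the deletion. In such bulk samples, fewer cells of a type and less RNA per cell cannot be told apart.

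The protein Dpy30 belongs to the core of all SET1 and MLL complexes, which place methyl groups on lysine 4 of histone H3. The trimethylated form of this mark sits at the start sites of active genes and is found above all at starts rich in CpG dinucleotides. The islet's cell types are usually told apart by their hormones: beta cells make insulin, alpha cells glucagon, delta cells somatostatin, gamma cells pancreatic polypeptide and epsilon cells ghrelin. Beta cells take up glucose through the transporter that Slc2a2 encodes, and the resulting rise in ATP closes a channel whose pore is encoded by Kcnj11, which opens calcium channels and releases insulin.

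The libraries held 24575889 to 25354384 estimated reads in control and 17131515 to 23976598 in knockout islets. From their values, the deposited gene levels are rescaled counts, and the factor differed between genes of 1 library as well as between libraries. In knockout replicate 1, Muc4 stood at 102 from 44 estimated reads and Adh1 at 56.4 from 63. Fitted log2 fold changes come from the estimated reads, so they need not match the remaining shares. Dpy30 itself was not lower in this table: control replicates 1 to 3 read 480, 557 and 594, and knockout replicates 906, 1439 and 881. Transcripts that skip a 143 bp exon (chromosome 17, 74307720 to 74307862, GRCm38) held 82.2, 81.0 and 80.5% of Dpy30 reads in the knockout and 5.24, 0.438 and 3.78% in the control libraries. That exon was picked with these values in view. Summed acinar markers (digestive enzyme cells) ran from 711 to 2400 TPM, a level scaled by length and library total, in control and from 1781 to 15145 TPM in knockout libraries, with the highest in knockout replicate 3. Their part in the results was not tested. Without knockout replicate 3, 61 genes met the rule, 51 of the 53 among them.

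What remained of these 53 genes in knockout islets, as a percentage of the control mean, ran from 4.31% (Adh1) to 20.0% (Bco1), with a median of 14.6%. Over all genes detected at the same control floor the median was 99.3%. Of the 53, 13 kept less than 10%, 17 kept 10 to 15% and 23 kept 15 to 20%. Leaving out 1 library in turn took 14 of the 53 over 20% at least once. They were Scnn1g, Slc17a9, Rem2, Oxtr, Lrrc24, Inava, Fgd2, Kcnj11, Fmo1, Ppy, Zim1, D630039A03Rik, Grin2c and Bco1. All 53 passed the edgeR quasi-likelihood test as lower in knockout islets (Benjamini-Hochberg adjusted p below 0.05), where 6.34% of the 10799 tested protein-coding genes at the floor did. Over all 16430 tested genes 5.84% were lower and 4.1% higher, 9.95% in either direction. These shares are the background for every list count below. The lists were chosen with earlier results of these data known, so their counts are a description. Nothing is read from the count of the 53, since the rule used the same contrast. Separation of the groups was common, as 17.7% of the genes at the floor had every knockout value below every control value. The log2 fold changes fitted here ran from -4.60 to -2.05, and those in the authors' deposited table from -4.49 to -1.91.

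**Figure D1:**
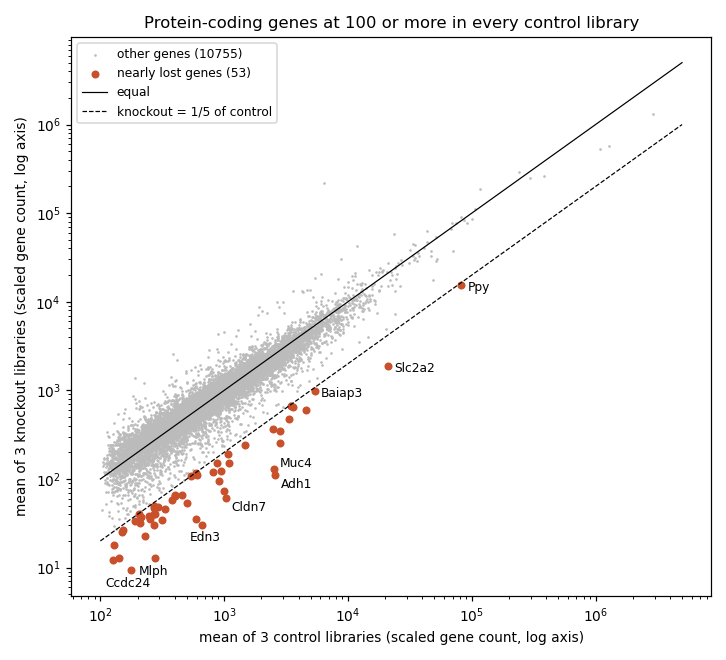
Mean scaled gene count of 3 knockout libraries (vertical, log axis) against that of 3 control libraries (horizontal, log axis) for protein-coding genes at 100 or more in every control library. The solid line marks equal means and the dashed line knockout at 20% of control. The 53 genes of the set lie on or below the dashed line, from a control mean of 126.4 (Ly6h) to 82386 (Ppy).

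The set was not one of very abundant genes. The median control mean was 501.2 scaled counts for the set and 765.7 for all genes at the floor, and per length the median control level was 8.42 TPM against 12.5 TPM. Ppy alone made up 52.7% of the set's summed scaled counts in control islets. Together the 53 genes took 0.557 to 0.765% of each control library's scaled counts and 0.0866 to 0.133% of each knockout library's. On the TPM scale, which is not adjusted for a shift in the most abundant transcripts, the remaining share ran from 5.30 to 26.8% with a median of 18.5%, and 32 of the 53 were at or below 20%.

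The ratio of the lowest control to the highest knockout value ran from 2.04 (Slc17a9) to 13.7 (Edn3), with a median of 4.39. For 16 genes it was 5 or more. The knockout libraries were not alike within the set: replicate 1 held the lowest knockout value for 36 of the 53 genes, replicate 2 for 15 and replicate 3 for 2. Over all genes at the floor these shares were 34.4, 41.4 and 24.2%. The highest knockout value lay in replicate 3 for 28 genes. In control islets replicate 3 held the lowest value for 27 genes. Among libraries of 1 group, the set's median coefficient of variation (SD over mean) was 22.4% in control and 31.2% in knockout islets. For all genes at the floor it was 12.2 and 16.2%. Levels were not matched: the set's median per knockout library was 48.3 to 70.8 scaled counts, where counting error adds to the spread. Variation among mice was not separated from it. In control islets the coefficient was lowest for Grin2c (5.61%) and highest for Fmo1 (66.8%).

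**Figure D2:**
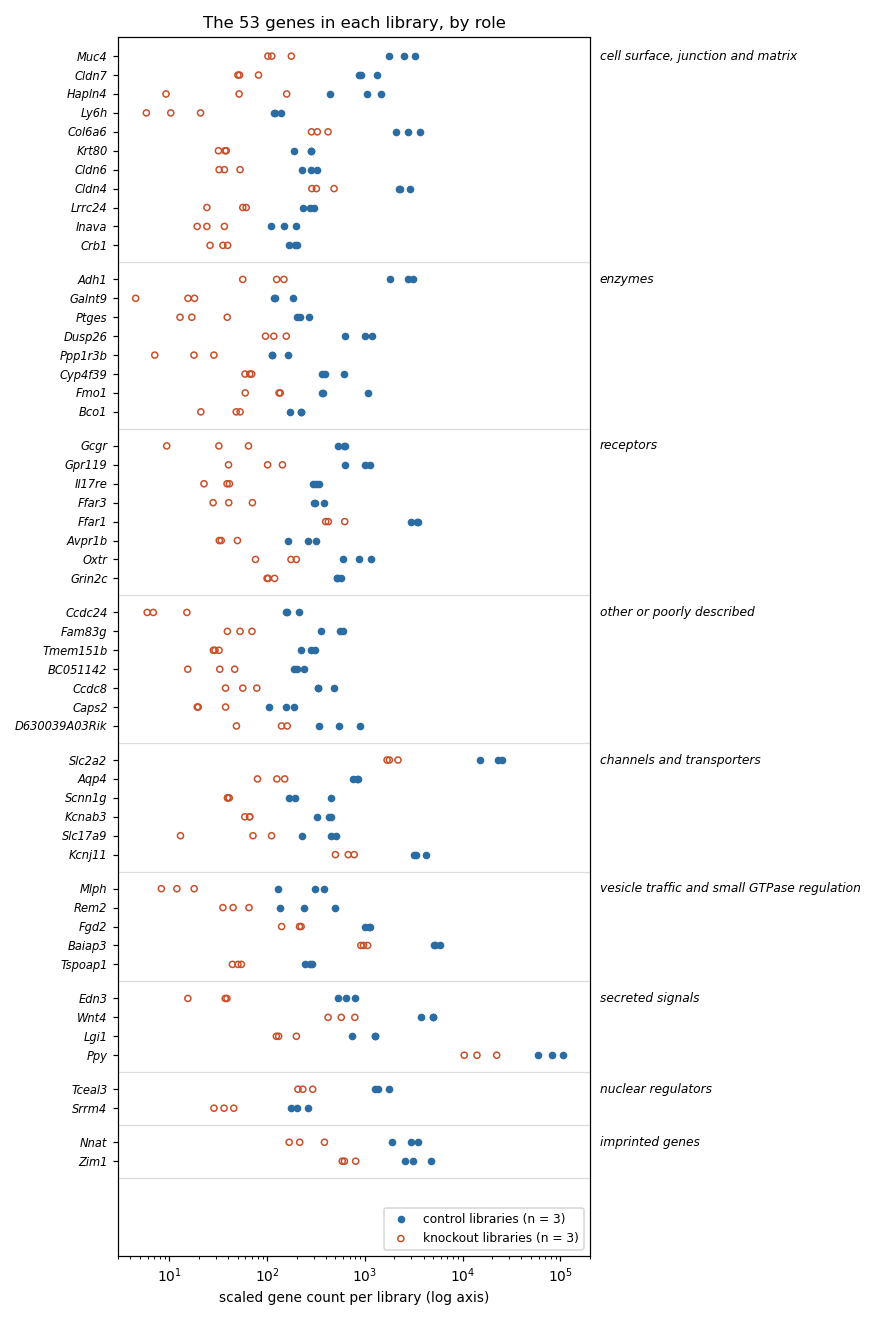
Scaled gene count (log axis) of each of the 53 genes in each library, 3 control (filled) and 3 knockout (open), grouped by role and ordered by remaining share within a role. As the rule requires, no knockout point reaches a control point of the same gene. The gap is narrowest for Slc17a9 and widest for Edn3.

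The start of the main transcript was poorer in CpG in this set than in other genes. Within the first 300 bases of the transcript that held most control reads, the ratio of observed to expected CpG had a median of 0.45 in the 53 genes and 0.77 in 10750 other genes at the floor with a sequence. Counting a start as CpG-rich at a ratio of 0.6 or more and a GC content of 50% or more, 18 of the 53 (34.0%) and 7574 of the 10750 (70.5%) qualified. Among 5070 other genes with control means of 269 to 1099, between the quartiles of the set by level, the share was 70.3%. It was 56.2% of the 632 other genes called lower and 65.8% of the 363 called higher. GC content alone was close, at medians of 59.3 and 61.3%. These shares are given as a description, since genes are not replicates. Crb1 had the lowest ratio, 0.06, and Muc4 had 0.08, while Wnt4 had the highest, 0.99. Slc2a2 (0.38), Ffar1 (0.38), Kcnj11 (0.18) and Ppy (0.27) had CpG-poor starts and Gcgr (0.67) a CpG-rich one.

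**Figure D3:**
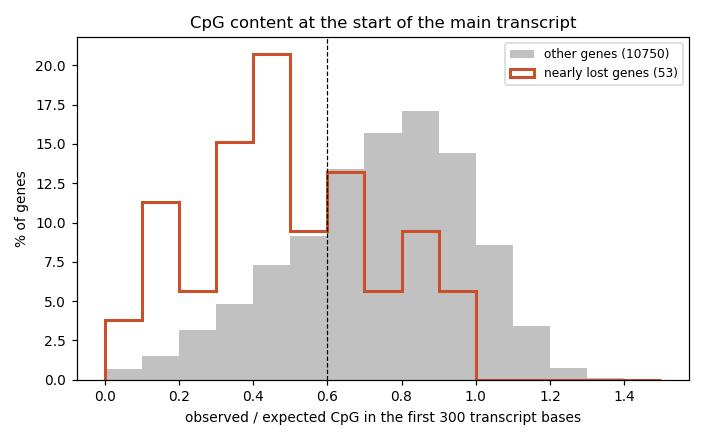
Distribution of the observed over expected CpG ratio in the first 300 bases of the main control transcript (horizontal), as a percentage of genes (vertical), for the 53 genes and for the 10750 other genes at the control floor. The dashed line marks 0.6, and most of the set lies to its left while most other genes lie to its right.

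The sequences just before the start site show this range for 3 genes of the islet's nutrient and signalling machinery: Slc2a2, the most abundant of the set after Ppy, Ffar1, which stands beside a second gene of the set, and Wnt4, which has the highest CpG ratio. Each is the 250 bases before the annotated start from RefSeq (GRCm38.p6), 5′ to 3′ on the gene's own strand, with each CG dinucleotide in capitals. The Slc2a2 stretch (chr3:28697653-28697902, plus strand) holds 2, the Ffar1 stretch (chr7:30861471-30861720, minus strand) 8 and the Wnt4 stretch (chr4:137277385-137277634, plus strand) 44. Over 32851 such promoters in the table the median was 6, with quartiles of 2 and 16. The RefSeq starts need not match the gene coordinates given in this report. By those coordinates the Slc2a2 stretch ends just before its gene, while the Ffar1 and Wnt4 stretches reach into theirs.
Slc2a2: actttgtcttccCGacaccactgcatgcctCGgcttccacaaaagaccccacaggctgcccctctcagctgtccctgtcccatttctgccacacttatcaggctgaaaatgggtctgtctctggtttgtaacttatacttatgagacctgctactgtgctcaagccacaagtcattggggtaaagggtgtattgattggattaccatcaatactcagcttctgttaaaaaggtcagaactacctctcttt
Ffar1: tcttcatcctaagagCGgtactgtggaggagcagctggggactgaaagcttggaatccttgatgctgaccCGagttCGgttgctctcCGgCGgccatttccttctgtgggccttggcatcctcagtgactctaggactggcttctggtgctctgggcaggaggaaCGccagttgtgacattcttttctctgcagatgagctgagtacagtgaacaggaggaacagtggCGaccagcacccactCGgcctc
Wnt4: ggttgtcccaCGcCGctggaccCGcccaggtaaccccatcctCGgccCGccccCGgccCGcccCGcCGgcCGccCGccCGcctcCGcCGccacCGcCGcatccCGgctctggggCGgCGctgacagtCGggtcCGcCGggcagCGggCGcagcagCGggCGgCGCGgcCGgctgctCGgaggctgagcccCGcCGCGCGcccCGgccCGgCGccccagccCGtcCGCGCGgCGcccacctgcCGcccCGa

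Of the 8 receptors in the set, 6 are G protein-coupled receptors, and the receptors kept a median of 14.3% of their control level. Gcgr (ENSMUSG00000025127, chromosome 11 from 120530699 to 120538986 on the plus strand) is the receptor for glucagon and in the islet is usually found on beta cells. It read 526, 631 and 611 in control replicates 1, 2 and 3 and 9.40, 64.5 and 32.1 in knockout replicates 1, 2 and 3, the order used from here on. Control libraries were close together, and knockout replicate 1 was far below the other two knockout libraries. The means were 589 ± 55.5 and 35.4 ± 27.7 (SD, n = 3 each, as for all means below), so 6.001% remained, or 3.52% without knockout replicate 2. A noncoding RNA on the opposite strand, Gm11789, went from 6.10 to 0.376 TPM, and Gcgr overlaps it; the library kit keeps strand, per the labels.

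Ffar1 (ENSMUSG00000044453, chromosome 7 from 30857390 to 30861564 on the minus strand), the receptor by which beta cells sense long-chain fatty acids, read 2965, 3455 and 3514 in control and 398, 423 and 623 in knockout libraries. The 3 control values were within a narrow band, and all 3 knockout values lay far under it, with replicate 3 the highest. The means of 3311 ± 302 and 481 ± 123 left 14.5%. Ffar3 (ENSMUSG00000019429), a receptor for short-chain fatty acids found on beta cells, lies 1212 bases from Ffar1 on chromosome 7. It read 309, 301 and 384 in control and 28.1, 40.5 and 70.8 in knockout libraries, with replicate 3 highest in both groups and no overlap (14.02% remaining). The next gene of the same cluster, Ffar2, another short-chain fatty acid receptor, kept 81.8% of its control mean and did not pass the test (log2 fold change -0.23, adjusted p = 0.442, edgeR quasi-likelihood test). Cd22, on the other side of the pair, did not pass it either (log2 fold change 0.03).

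Gpr119 (ENSMUSG00000051209) senses lipid amides and is found on beta and gamma cells. Its control values were 623, 1001 and 1121, and its knockout values 40.3, 144 and 101. Control replicate 1 was the lowest control library and knockout replicate 1 the lowest of all, and 10.4% of the mean remained. The other receptors were Il17re, a subunit of the receptor for interleukin 17C (10.8% remaining), Avpr1b, the vasopressin receptor V1b (15.6%), Oxtr, the oxytocin receptor (17.2%), and Grin2c, a subunit of NMDA-type glutamate receptors (19.8%). In mouse islets Avpr1b is usually an alpha cell gene.

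Among 25 other tested genes of an islet G protein-coupled receptor list, 3 were lower, 1 was higher and 21 did not pass the test, with a median log2 fold change of -0.23 against 0.01 for all tested genes. Leaving out any single library gave 3 or 4 lower and 1 higher, and a fit with the replicate number as a block gave 5 lower and 3 higher. The lower ones included Glp1r, the incretin receptor of beta cells, from 14615 ± 5272 to 3969 ± 779.6 scaled counts (log2 fold change -1.91 with an SE of 0.29, adjusted p = 0.00707, edgeR quasi-likelihood test). Sstr3, a somatostatin receptor (log2 fold change -1.55), and Galr1, a galanin receptor (-1.34), fell too. Tacr3, the neurokinin B receptor, rose from 38.6 ± 13.2 to 1181 ± 182 (log2 fold change 4.93 with an SE of 0.26, adjusted p = 0.000447, by that test). Over genes whose symbols start with Gpr, 6 of 49 outside the set were lower and 0 higher, against 5.84% lower and 4.1% higher among all tested genes. Without control replicate 3 or knockout replicate 1 the number lower was 3, and without any other single library it was 4 to 6.

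The 6 channels and transporters kept a median of 15.4%. Slc2a2 (ENSMUSG00000027690, chromosome 3 from 28697903 to 28731359 on the plus strand) encodes GLUT2, through which mouse beta cells take up glucose. Its control values were 23002, 25247 and 14947, and its knockout values 1690.0, 2184 and 1784. Control replicate 3 was the lowest control library, the 3 knockout libraries were close together, and the groups were far apart. Means of 21065 ± 5417 and 1886 ± 262 left 8.95%. One transcript held 70.3% of its reads in control and 77.2% in knockout islets.

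Kcnj11 (ENSMUSG00000096146, chromosome 7 from 46093953 to 46100764 on the minus strand) encodes Kir6.2, which forms the pore of the potassium channel that ATP closes, and is expressed in several islet cell types. It read 3191, 4240.0 and 3374 in control and 500.2, 779 and 677 in knockout libraries. Control replicate 2 and knockout replicate 2 were each the highest of their group, with no overlap, and 18.1% remained. Without knockout replicate 1 that share was 20.2%, over the limit of the rule. Abcc8, which encodes the channel's regulatory subunit and lies 3759 bases from Kcnj11, kept 56.3% and did not pass the test (log2 fold change -0.83 with an SE of 0.24, adjusted p = 0.0672, edgeR quasi-likelihood test). Abcc8 did pass with the replicate block (adjusted p = 0.0425) and without knockout replicate 2 (0.0156). Of the 10 other tested genes for glucose entry and channel coupling, 1 was lower, 0 were higher and 9 did not pass it; with the block 2 were lower. The lower one was Pklr, a pyruvate kinase (log2 fold change -1.01, adjusted p = 0.0216), which lost its call without control replicate 1, control replicate 2, knockout replicate 2 or knockout replicate 3.

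The remaining channels and transporters were Aqp4, a water channel (14.6% remaining), Scnn1g, a subunit of the epithelial sodium channel (14.8%), Kcnab3, an auxiliary subunit of voltage-gated potassium channels (15.9%), and Slc17a9, which loads nucleotides into secretory granules (16.4%). Slc17a9 had the narrowest gap of the set, with knockout values of 13.01, 111 and 71.8 under control values of 226, 455 and 512. Without knockout replicate 2, 10.7% remained, and without knockout replicate 1, 23.0%, over the limit of the rule. Voltage-gated calcium channel genes were not in the set. Of 19 tested, 7 were lower and 0 higher, beside 5.84 and 4.1% of all tested genes. That count was 1 to 3 with any single library left out: 2 without control replicate 1 or 2 or knockout replicate 1, 1 without control replicate 3 or knockout replicate 3, and 3 without knockout replicate 2.

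**Figure D4:**
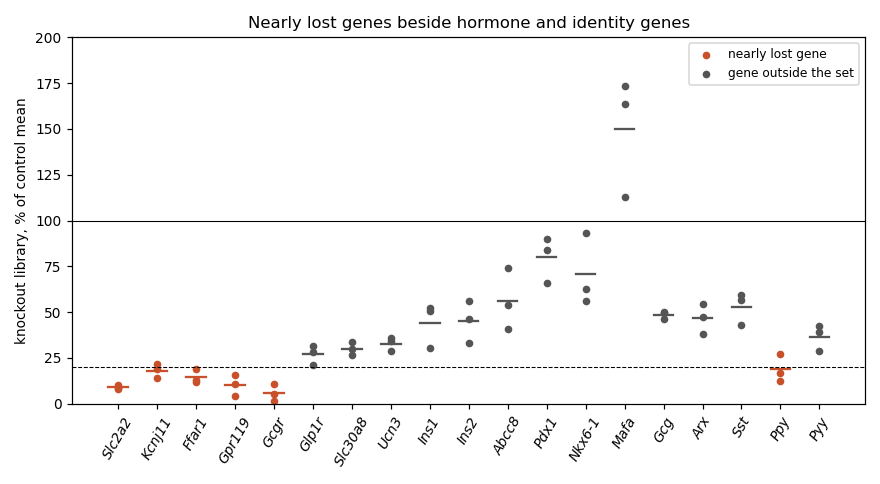
Value of each of 3 knockout libraries as a percentage of the control mean (vertical) for 6 genes of the set and for hormone and identity genes outside it; bars are means, the solid line is 100% and the dashed line 20%. Slc2a2, Ffar1, Gcgr and Gpr119 lie under the dashed line in all 3 libraries, and Kcnj11 and Ppy lie above it in knockout replicate 2. Ins1, Ins2, Gcg and Sst keep 44.3 to 52.9% and Mafa stands at 149.8%.

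The secreted signals were Edn3, Wnt4, Lgi1 and Ppy. Edn3 (ENSMUSG00000027524, chromosome 2 from 174760619 to 174784042 on the plus strand) encodes the peptide endothelin 3. Its control values were 649, 533 and 794, and its knockout values 15.5, 37.3 and 38.9. Knockout replicate 1 was the lowest, and even the highest knockout value lay 13.7-fold below the lowest control value, the widest gap of the set. Means of 659 ± 131 and 30.5 ± 13.1 left 4.64%. Of 5 other tested genes of the endothelin system 1 was lower and 0 higher (1 higher with the block), and that 1, the converting enzyme gene Ece1 (log2 fold change -0.80, adjusted p = 0.0376, edgeR quasi-likelihood test), lost its call without any 1 of the control libraries or knockout replicate 3.

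Ppy (ENSMUSG00000017316, chromosome 11 from 102099930 to 102101319 on the minus strand), the hormone of gamma cells, was the most abundant gene of the set. It read 106180.0, 58649.5 and 82328 in control and 10397, 22334 and 14039.6 in knockout libraries. Control values spread widely, knockout replicate 2 was the highest of its group, and it lay well below the lowest control library. The means were 82386 ± 23765 and 15590.2 ± 6118, so 18.9% remained. Without control replicate 1 or knockout replicate 1 that share was 22.1%, over the limit of the rule. Of 4 other tested gamma cell markers 3 were lower, 0 were higher and 1 did not pass the test; without a single library 1 or 2 were lower (1 without control replicate 1, control replicate 3 or knockout replicate 2). Pyy, a peptide hormone whose gene lies 5357 bases from Ppy, fell from 48663 ± 10336 to 17821 ± 3490.2 (log2 fold change -1.44 with an SE of 0.24, adjusted p = 0.0103, edgeR quasi-likelihood test), and kept its call without each library in turn.

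Wnt4 (ENSMUSG00000036856, chromosome 4 from 137277489 to 137299726 on the plus strand), a Wnt ligand found in mature islet endocrine cells, read 4949.7, 5015 and 3745 in control and 421, 574 and 790.3 in knockout libraries. Knockout replicate 3 was the highest of its group and lay far below control replicate 3, the lowest control library. Of its control mean, 4569.8 ± 715, 13.02% remained. Lgi1, a secreted protein best known from neurons, kept 13.8%. Across 16 other tested peptide hormone genes 3 were lower, 4 higher and 9 did not pass the test, and with the block 5 were lower and 4 higher. The 3 lower ones were Ucn3, made by mature beta cells (32.8% remaining), Pyy and Sst, the delta cell hormone. Sst lost its call when any 1 control library, or knockout replicate 3, was left out. Counts of higher hormones fell to 1 or 2 when any library other than control replicate 3 was left out.

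The insulin genes kept 44.3% (Ins1) and 45.1% (Ins2), and Gcg, which encodes glucagon, kept 48.7%. None of the 3 passed the test (adjusted p = 0.0779, 0.069 and 0.0629, edgeR quasi-likelihood test). With the replicate block Ins1 and Ins2 did (adjusted p = 0.0219 and 0.0229) and Gcg did not (0.0543), and without knockout replicate 2 Ins2 did (0.0382). Marker sums are in TPM and are not comparable with the shares of single genes here, which are in scaled counts. Summed beta cell markers stood in knockout islets at 57.0% of control and alpha markers at 64.0%. Delta markers stood at 67.1%, gamma markers at 30.8% and epsilon markers at 92.2%. The gamma sum holds Ppy and the beta sum Slc2a2, which the rule chose for their fall. Ppy went from a mean of 10424 TPM in control to 2293 TPM in knockout libraries, a large part of the gamma sum. The gamma share is therefore partly set by the rule. The transcription factors of beta cells Pdx1 and Nkx6-1 kept 79.98% and 70.6%, and Mafa stood at 149.8%; none of them passed the test (adjusted p = 0.333, 0.186 and 0.097), although Mafa was higher without knockout replicate 1 (adjusted p = 0.0472). Of 11 tested beta cell markers outside the set 4 were lower. Slc30a8, the zinc transporter of insulin granules (29.95% remaining), Ucn3 and Glp1r (27.2%) each kept its call when any single library was left out. The other, Ero1lb, which helps form disulfide bonds in new proteins (57.2% remaining), lost its call without every single library except knockout replicate 2. Among 27 tested islet transcription factors, none of them in the set, 9 were lower and 1 was higher. Of all tested genes 5.84% were lower and 4.1% higher. Isl1, St18 and Fev (log2 fold changes -1.17, -1.36 and -1.60) were lower without each library too, and the number lower was 4 or 5 without any library except knockout replicate 2, where it was 8.

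The largest role group was that of 11 genes of the cell surface, cell junctions and matrix, with a median of 14.3% remaining. Muc4 (ENSMUSG00000079620, chromosome 16 from 32735886 to 32782391 on the plus strand), a membrane mucin of epithelia, read 1779, 3245 and 2536 in control and 102, 177 and 112 in knockout libraries. Knockout replicates 1 and 3 were close and replicate 2 higher, all far below control, and 5.17% remained. Claudins form the strands of tight junctions, and 3 of them met the rule. Cldn7 (ENSMUSG00000018569, chromosome 11 from 69964779 to 69967885 on the plus strand) read 1319.7, 871 and 909.9 in control and 52.3, 50.3 and 81.7 in knockout libraries. Control replicate 1 stood above the other two control libraries, and the groups were far apart (5.95% remaining).

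Cldn4 (ENSMUSG00000047501) read 2919, 2300.1 and 2237 in control and 485, 287 and 319.6 in knockout libraries, with replicate 1 the highest in both groups and no overlap. Cldn6 (ENSMUSG00000023906) read 324, 226 and 284 in control libraries and 32.3, 36.6 and 52.9 in knockout libraries. Its groups were apart as well, and Cldn4 and Cldn6 each kept 14.6%. Of 15 other tested genes of tight junctions and the epithelial surface, 4 were lower, 2 higher and 9 did not pass the test. The shares over all tested genes were 5.84% lower and 4.1% higher. The claudin Cldn3 fell from 474 ± 92.6 to 97.7 ± 19.2 (log2 fold change -2.27 with an SE of 0.23, adjusted p = 0.00204, edgeR quasi-likelihood test), and Tjp3, a scaffold of tight junctions, fell too (log2 fold change -1.71). Cldn2, a claudin that forms pores for cations, rose from 74.4 ± 11.2 to 576 ± 67.6 (log2 fold change 2.93 with an SE of 0.20, adjusted p = 0.000741, by that test). Without any 1 control library the list had 2 lower and 1 higher.

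Hapln4 (ENSMUSG00000007594), which links hyaluronan to its binding proteins in the matrix, read 444, 1481 and 1056 in control and 9.25, 51.7 and 159 in knockout libraries. Both groups spread widely, control replicate 1 was the lowest of its group and knockout replicate 3 the highest of its own, and they did not overlap (7.37% remaining, or 3.07% without knockout replicate 3). Col6a6 (ENSMUSG00000043719), a chain of collagen VI, read 3686, 2784 and 2071 in control and 327, 285 and 421 in knockout libraries. Its knockout values were close together and well below the lowest control value, in replicate 3 (12.1% remaining). Ly6h (ENSMUSG00000022577), a small lipid-anchored surface protein, read 140.1, 121 and 118 in control libraries and 5.82, 20.9 and 10.3 in knockout libraries, with the lowest control mean of the set (9.77% remaining, or 6.39% without knockout replicate 2). Of 6 other tested genes for hyaluronan linkage and lectican matrix 0 were lower and 1 was higher by the edgeR test, and 3 were higher with the block. The higher one, Hapln1, another link protein (log2 fold change 0.72, adjusted p = 0.0289), kept its call only without knockout replicate 2 among single libraries left out.

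The remaining genes of this group were Krt80, a keratin (14.3% remaining), Crb1, a polarity protein of epithelia (17.8%), Inava, which acts at epithelial junctions and in innate signalling (17.5%), and Lrrc24, a membrane protein with leucine-rich repeats (17.4%). Lrrc24 overlaps Lrrc14 on the opposite strand and C030006K11Rik on its own strand, and neither was lower in TPM.

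Enzymes, with Ppp1r3b (which targets a phosphatase) counted among them, made up 8 of the 53, with a median of 13.5% remaining. Adh1 (ENSMUSG00000074207, chromosome 3 from 138260991 to 138290698 on the plus strand), an alcohol dehydrogenase that also oxidises retinol, had the lowest remaining share of all. Its control values were 3086, 2767 and 1811, and its knockout values 56.4, 125 and 149. Control replicate 3 was the lowest control library and still far above knockout replicate 3, the highest knockout library. Means of 2555 ± 663 and 110.1 ± 47.97 left 4.31%. Its neighbours of the same enzyme family, Adh7 and Adh5, did not pass the test (log2 fold changes 0.43 and 0.34). Of 11 other tested genes for alcohol and retinoid metabolism 1 was lower and 0 higher: Rbp4, the carrier of retinol, which delta cells express, fell from 5238 ± 523 to 1728 ± 193 (log2 fold change -1.63 with an SE of 0.16, adjusted p = 0.00177, edgeR quasi-likelihood test) and kept its call without each library in turn.

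Galnt9 (ENSMUSG00000033316), which starts O-linked sugar chains, read 119.5, 183 and 117 in control and 4.53, 18.1 and 15.5 in knockout libraries. Control replicate 2 was the highest and knockout replicate 1 the lowest, and 9.07% remained. The other enzymes were Ptges, a prostaglandin E synthase (9.99% remaining, or 6.49% without knockout replicate 3), Dusp26, a phosphatase (13.1%), Ppp1r3b, which targets a phosphatase to glycogen (13.8%), the cytochrome P450 Cyp4f39 (14.3%), the flavin monooxygenase Fmo1 (18.2%) and Bco1, which splits beta-carotene (19.96%). Fmo1 read 364, 1069 and 377 in control libraries and 59.8, 133 and 136 in knockout libraries, and without control replicate 2, far above the other two, 29.5% remained, over the limit of the rule. Cyp4f39 has a close relative beside it, so reads can be shared between them.

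Of the 5 genes for vesicle traffic and small GTPase regulation, Mlph and Baiap3 were the extremes in loss and in level. Mlph (ENSMUSG00000026303, chromosome 1 from 90915085 to 90951142 on the plus strand) encodes melanophilin, which links vesicles carrying Rab27a to the motor myosin Va and is known from pigment cells. It read 384, 310.0 and 128 in control and 17.95, 8.29 and 11.96 in knockout libraries. Control replicate 3 was far below the other two, and still well above every knockout library (4.65% remaining, from a mean of 13.3 reads in knockout libraries). Baiap3 (ENSMUSG00000047507, chromosome 17 from 25242659 to 25256364 on the minus strand), of the Munc13 family of vesicle release factors, read 5867, 5083 and 5180.3 in control and 910.5, 1068 and 969 in knockout libraries. Values were close together within both groups and 18.3% remained; Tsr3, which overlaps it on the opposite strand, went from 12.2 to 19.2 TPM.

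The other 3 were Tspoap1, which binds the scaffold RIM at release sites (18.5% remaining), Fgd2, an activator of the GTPase Cdc42 (17.8%), and Rem2, a small GTPase that restrains calcium channels and is known from beta cells (16.6%). Rem2 read 499, 135 and 241 in control libraries and 65.3, 44.9 and 35.3 in knockout libraries, and without control replicate 1, the highest by far, 25.8% remained, over the limit of the rule. The Rab27 and melanophilin system docks secretory granules. Among its 13 other tested genes 5 were lower, 0 higher and 8 did not pass the test, beside 5.84% lower and 4.1% higher of all tested genes. Sytl3, which binds Rab27, was lower by the edgeR quasi-likelihood test (log2 fold change -2.35 with an SE of 0.31, adjusted p = 0.0044) and without each library too. Sytl1 (log2 fold change -1.45) lost its call without knockout replicate 3. The count fell to 2 without any 1 control library, to 3 without knockout replicate 1 and to 1 without knockout replicate 3.

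Both imprinted genes of the set, which are expressed from 1 parental allele, were among its 10 most abundant genes in control islets. Nnat (ENSMUSG00000067786, chromosome 2 from 157560078 to 157562522 on the plus strand), neuronatin, a small membrane protein that beta cells express from the paternal allele, read 3509.9, 1901 and 2987 in control and 168, 386 and 216 in knockout libraries. Control replicate 2 was the lowest of its group and knockout replicate 2 the highest of its own, with no overlap (9.17% remaining). The transcript with most control reads held 72.4% of Nnat reads there and 39.0% of the 703 knockout reads. Blcap, in which Nnat lies on the opposite strand, went from 33.3 to 27.8 TPM. Zim1 (ENSMUSG00000002266), a zinc finger gene, read 4733, 3124 and 2596 in control and 618, 806 and 588 in knockout libraries, and its knockout values were close together far below control (19.2% remaining).

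Of 22 other tested imprinted genes 8 were lower, 0 higher and 14 did not pass the test, with a median log2 fold change of -0.54. Over all tested genes the shares were 5.84% lower and 4.1% higher. Usp29 (log2 fold change -1.32) and Rasgrf1 (-1.27) were lower without each library too. Peg3, the neighbour of Zim1 at 7442 bases, was lower by the edgeR quasi-likelihood test (log2 fold change -0.85, adjusted p = 0.0243) but lost its call without any 1 control library or knockout replicate 3. The count was 4 without control replicate 1, control replicate 3, knockout replicate 1 or knockout replicate 3, 3 without control replicate 2 and 6 without knockout replicate 2.

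The nuclear regulators were Srrm4, a splicing factor that neurons and endocrine cells use to include microexons (17.2% remaining), and Tceal3, of a family related to elongation factor TFIIS (16.6%), whose close relatives can share its reads. Less is known of the last 7. Ccdc24 (ENSMUSG00000078588) read 214, 160.3 and 155 in control and 5.94, 15.1 and 6.86 in knockout libraries, with replicate 1 the highest control and the lowest knockout library and 5.27% remaining. Its main control transcript held 55.3% of its reads there and 0% of the 34.2 estimated knockout reads, and it overlaps B4galt2 on its own strand and Slc6a9 on the opposite one. The others were Fam83g (10.8% remaining), Tmem151b (11.004%), BC051142 (15.1%), Ccdc8, of the 3M growth complex (15.2%), Caps2, a calcium-binding protein (17.2%), and D630039A03Rik (19.6%).

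The same transcript led in both groups for 49 of the 53 genes, 8 of which have a single transcript in the table. The exceptions were Ccdc24, Nnat, Ppp1r3b and Srrm4. Transcript length was similar to that of other genes at the floor, with medians of 2565 and 2407 bases, and gene bodies spanned a median of 18075 against 26361 bases. Chromosome 11 held 7 of the 53 genes and 887 of the 10808 genes at the floor. Chromosomes 7 and 17 held 6 each, beside 793 and 540 genes at the floor, and chromosome 1 held 5 beside 621. Chromosomes 12 and 13 held 0, beside 369 and 392. Apart from Ffar1 and Ffar3, no pair of the set lay closer than 631737 bases.

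The nearest tested protein-coding gene on each side, 104 genes in all, was lower in 12 cases (11.5%) and higher in 1 (0.962%), beside 6.04 and 4.35% of all tested protein-coding genes. Their median log2 fold change was -0.02. Members of a shared gene family stood among the lower neighbours: Cldn3 beside Cldn4, Fmo4 beside Fmo1, Cyp4f17 beside Cyp4f39, Scnn1b beside Scnn1g, Tceal1 beside Tceal3 and Pyy beside Ppy. Il17rc beside Il17re was lower too, but kept its call only without knockout replicate 2 among single libraries left out. Other relatives did not pass the test: Cldn9 beside Cldn6, Fmo2 beside Fmo1, Col6a5 beside Col6a6, Krt7 beside Krt80 and Ly6c1 beside Ly6h. Nor did Ffar2 beside Ffar1 and Ffar3, or Adh7 and Adh5 beside Adh1. Fmo4 had the lowest log2 fold change, -3.83 at a gap of 15589 bases. Rab17, a GTPase gene 6991 bases from Mlph, had -3.01 and lost its call without knockout replicate 1 or 3. Without control replicate 1, 2 or 3 or knockout replicate 1 the count of lower neighbours was 9, and without knockout replicate 3 it was 8. With the block 13 were lower and 3 higher.

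**Figure D5:**
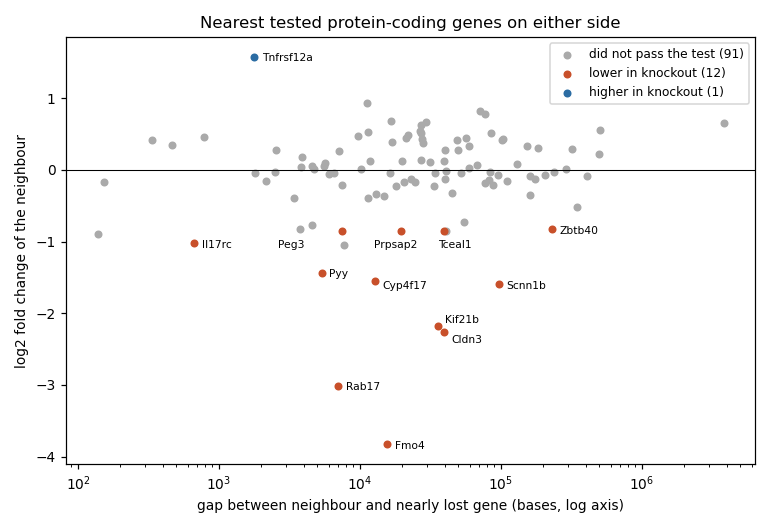
Log2 fold change (vertical) of the nearest tested protein-coding genes on either side of the 53 genes against the gap in bases (horizontal, log axis), coloured by the edgeR call. The 12 lower neighbours include Fmo4 at -3.83 and lie at gaps from 669 to 228688 bases, and 91 neighbours did not pass the test.

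Markers of other cell types moved in part with genotype. Summed endothelial markers ran from 184 to 253 TPM in control and from 255 to 492 TPM in knockout libraries, and mesenchymal markers from 74.2 to 147 and from 117 to 375 TPM. Of 8 endothelial markers 3 were higher by the edgeR test and 0 lower, and this count was 0 without any library except knockout replicate 2. Of 9 mesenchymal markers 1, Pdgfra, was higher, but all 9 were with the replicate block and 5 with DESeq2. Of 11 acinar markers 0 were higher, against 6 of 12 with no filter on low counts, and 1, Bhlha15, was lower, a call lost without control replicate 2 or 3 or knockout replicate 1 or 2. The sums in knockout islets stood at 458% of control for acinar (217% without knockout replicate 3), 184% for endothelial, 222% for mesenchymal, 125% for ductal, 97.5% for immune, 118% for Schwann and 132% for red blood cell markers. Their part in the values of the 53 genes was not tested.

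The limits of the rule cut through a continuous range. Just inside 20% stood D630039A03Rik, Grin2c and Bco1, at 19.6, 19.8 and 20.0%. Just outside stood Efna2, a membrane-bound ephrin (20.1%), Cldn3 (20.6%) and Dct, a melanin synthesis enzyme (20.8%). At the floor of 100 the lowest control values of Caps2 (104.4), Inava (110.6) and Ppp1r3b (111.6) were just inside, and those of Kif21b (93.9), S100z (93.6) and Duxbl2 (77.8) just outside.

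Noncoding genes stood outside the set, though 7 met the same limits: 4 long intergenic RNAs, 2 antisense RNAs and 1 processed pseudogene. Plut, an antisense RNA beside Pdx1, read 432, 420.4 and 254 in control and 46.3, 72.99 and 50.3 in knockout libraries. Neat1, a nuclear RNA, read 15087, 8233 and 4263 in control libraries and 2411, 1616 and 1007 in knockout libraries. Both sets of libraries were separate, although Neat1 spread widely in each group, and 15.3% and 18.2% remained. The pseudogene Gm5537 was listed at 0 in all 3 knockout libraries.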

How the data were processed

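The authors deposited, for each of 6 poly(A) RNA libraries, a Salmon transcript table with estimated counts and TPM, per the file headers. They also deposited signal values per gene, which from their values are scaled gene counts; for the scaling, no method is given in the sources used here. Per the file headers, a further deposited table gives the authors' comparison of the groups as a log2 fold change and p-value for each gene. Trimmomatic, Salmon, DESeq2, GRCm38 and mm10 are named in the submitters' processing notes, without versions. Members and gene lists were chosen with earlier results of these data known.

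The rule was applied to the deposited gene values; 21311 of 21341 gene identifiers matched GENCODE vM21 (GRCm38), which gave biotypes. Estimated counts were summed per gene over 139852 of 140948 transcripts (99.6 to 99.7% of reads), rounded and fitted with edgeR 4.0.16 in R 4.3.3: filterByExpr (minimum count 10), TMM, quasi-likelihood test, group as the only term, Benjamini-Hochberg adjustment over 16430 genes, threshold 0.05, two-sided. The procedure was tested on simulated data. DESeq2 1.42.0, limma 3.58.1 (voom), RLE factors, no low-count filter, a transcript-length offset, a replicate block and leaving out each library were alternatives. Genes named with values in every library were the 12 of lowest remaining share, the 10 of highest control mean and those in a fixed list; list genes outside the set were at most 4 per list, by smallest p, and hormone genes, Abcc8, Ffar2, Pdx1, Nkx6-1 and Mafa, the neighbours and the noncoding genes were chosen after their values were seen. The planned promoter table covered 35 of the 53 genes (66.0%), below the required 80%, so that check is void; first transcript bases were used instead, a choice made after seeing the data.

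Replicate numbers are shared between groups. Between control and knockout libraries with a common number, the correlation of deviations from group means was 0.505, 0.156 and 0.219. Each exceeds 0.1, the limit used for pairing, so the libraries count as paired by that limit. Control replicate 3 with knockout replicate 2 exceeds it too (0.192), so the limit does not single out pairs of a common number. The main fit held group only and ignored any pairing, and the replicate block is given as an alternative. For unlike numbers the correlation lay between -0.396 and 0.192, and what a number marks is not stated in the labels.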

Additional observations from a re-analysis of the deposited data

How the results depend on the processing

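The number of genes in the set followed its limits. It was 87 with a knockout mean of at most 1/4 of control, 13 with at most 1/10, 71 with a control floor of 50, 38 with a floor of 200, and 53 with overlap of the groups allowed. On TMM-scaled estimated counts it was 54, with 49 shared. Leaving out 1 library gave 48 to 61 genes, 44 to 52 of them shared with the 53. Counting a transcript start as CpG-rich at a ratio of 0.75, chosen after seeing the data, left 17.0% of the set and 51.2% of other genes. The same limit was not tried on promoters, since the promoter table covered too few genes.

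Over all tested genes 1634 were called. DESeq2 called 2633 and leaving out 1 library gave 737 to 1330. All 53 genes were called lower by DESeq2, limma-voom, RLE factors, no filter, the length offset and the block, and 49 to 53 when 1 library was left out. Nothing is read from these counts either, since the rule used the same contrast in the same libraries. With the replicate block, which pairs libraries by number, 2430 genes were called, and the fixed gene lists held 46 lower and 15 higher genes outside the set, against 35 and 9 without it; DESeq2 gave 44 and 14. Leaving out 1 library gave 18 to 34 lower and 3 to 7 higher. Of 276 alternative log2 fold changes of the 23 named genes of the set 0 reversed, a direction that the rule had set. Of these values 2 moved by more than the spread, both with the length offset: Baiap3 to -2.45 and Ccdc24 to -4.30. Among single lists, counts that moved by over 1.5 times with DESeq2 included receptors (6 lower), Gpr genes (11 lower), glucose entry (2 lower), hormones (6 lower), mesenchymal markers (5 higher), hyaluronan genes (3 higher) and neighbours (5 higher). With the length offset imprinted genes had 5 lower and hormones 5 lower. With limma-voom hormones had 5 lower and hyaluronan genes 2 higher. With no low-count filter receptors had 5 lower, hormones 6 lower, glucose entry 2 lower, mesenchymal and hyaluronan genes 3 higher each, and acinar markers 6 higher. RLE factors gave 2 higher neighbours. DESeq2 also called Ins1, Ins2, Gcg, Abcc8 and Mafa (adjusted p = 0.000902, 0.000136, 0.000223, 0.00453 and 0.0286), voom and the length offset called Ins2 and Gcg, and the fit with no filter called Ins1, Ins2, Gcg and Abcc8. Remaining shares and marker sums without each library, and other fits of genes that did not pass, were added after seeing the data. Of 552 alternative log2 fold changes of 46 named list genes 98 lost their call and 0 reversed.

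Having 3 mice per group limits the precision, and Ly6h, Ccdc24, Galnt9 and Mlph had mean knockout reads of 10.7 to 13.3, where counting error is large.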
